A study of Solanum lycopersicum with 36 samples.

Results

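The 9 genes described here encode chlorophyll-binding proteins of the light-harvesting antenna of tomato (Solanum lycopersicum) leaves. They are 9 of the 32246 genes in the expression table. They were picked from a pathway figure of antenna protein genes for smaller or mixed early changes under salt. That description does not hold for each gene and time: LOC101252151 had a log2 change of -3.54 at 6 h in grafted seedlings. That choice used the changes from 0 h at the early time points and set no numeric limit, so no gene lies just inside or just outside a threshold. All changes that involve the 0, 6, 12 or 24 h libraries are therefore given as a description with no test, and tests are given only between groups of 48 and 96 h. All 9 had less transcript at 24 h than at 0 h in both types of seedling. Of 20090 genes tested, 9826 had a log2 change below 0 then in grafted and 9810 in nongrafted seedlings. At 6 h, 6 of the 9 were higher by a log2 change of at least 1 in the nongrafted seedlings (10.8% of all genes were). The choice used the changes at these times, so nothing is read from the counts.

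Leaves of grafted seedlings (GSs) and of nongrafted seedlings (NGSs), which stood on their own roots, were compared under 175 mM NaCl in hydroponic Hoagland solution. The plant materials were the salt-sensitive variety Zhongza 9 and the salt-tolerant rootstock QZ-006, and RNA of the leaves alone was sequenced. The groups were GSs at 0, 6, 12, 24, 48 and 96 h of NaCl and NGSs at the same times, with 3 libraries in each of the 12 groups (36 in all). How many plants went into a library is not stated in the sources used here. RNA of unstressed seedlings was sequenced at 0 h alone, so the salt and the time that had passed cannot be told apart. The methods of the study name a single morning hour for sampling and do not say which harvests it covers. Unless it covered those of 6 and 12 h, the hour of the day cannot be told apart from salt and time there either. The times of 24, 48 and 96 h are whole days after 0 h. The leaf is a mixture of cells, and fewer cells that make a transcript and less of it per cell cannot be told apart either.

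Antenna proteins bind chlorophyll and carotenoids in the thylakoid membrane and pass the energy of absorbed light to a photosystem. The Lhca proteins form LHCI, the belt on the side of photosystem I (PSI), in which Lhca1 pairs with Lhca4 and Lhca2 with Lhca3, while Lhca5 is a scarce member that in Arabidopsis helps to join PSI to the NDH complex. Lhcb1 is the main protein of LHCII, the trimeric antenna of photosystem II (PSII). The genes lie in the nucleus, are among the most abundant transcripts of a green leaf, and are known for their response to light and for their daily rhythm. By the annotation of the study, LOC101253380 (chlorophyll a-b binding protein 6A) and LOC544310 (CAB6A) encode Lhca1, LOC101252151 and LOC101264376 (CAB7) Lhca2, LOC101253628 (CAB-8) Lhca3, LOC101268669 (CAB11) Lhca4, LOC101257186 Lhca5, and LOC101267774 (chlorophyll a-b binding protein 3A) and LOC101245729 Lhcb1. The table lists them by gene ID alone, as 101253380, 544310, 101252151, 101264376, 101253628, 101268669, 101257186, 101267774 and 101245729 in this order.

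The values are taken as FPKM (fragments per kilobase of transcript, scaled to the size of the library), a level per gene length. All 9 genes exceeded 1 FPKM in every library and were among the 20090 genes tested, and their reads were recovered from the values as 40 to 135338 in a library. A library held 15229640 to 26661418 reads on genes (median 22755230), and the NGSs at 0 h were the shallowest group (15229640 to 18403172, against at least 19497776 elsewhere). The leaf identity of the libraries was checked with the genes of the small Rubisco subunit, of which rbcS1 had 714 to 17432, RBCS4 2269 to 29695 and LOC543974 3249.7 to 36765 FPKM. Of the markers of other tissues, the fruit genes E8 and PG2 stayed at or under 0.0507 and 0.0338 FPKM and the root phosphate transporter PT2 at or under 0.173 FPKM. The fruit gene ACS2 reached 7.67 FPKM. Taken as markers of root and fruit, PT1 (3.89 to 237 FPKM) and Psy1 (5.19 to 596 FPKM) were present throughout. So was the phloem sucrose transporter LeSUT1 (51.6 to 325 FPKM). The markers of other tissues were thus not all low, which the check leaves unexplained. Their part in the values of the antenna genes was not tested. The 9 genes together made up 0.72 to 1.18% of the FPKM of a GS library at 6 h and 1.42 to 2.82% of an NGS library at 6 h, and 0.27 to 0.35% in GSs and 0.10 to 0.35% in NGSs at 24 h.

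**Figure D1:**
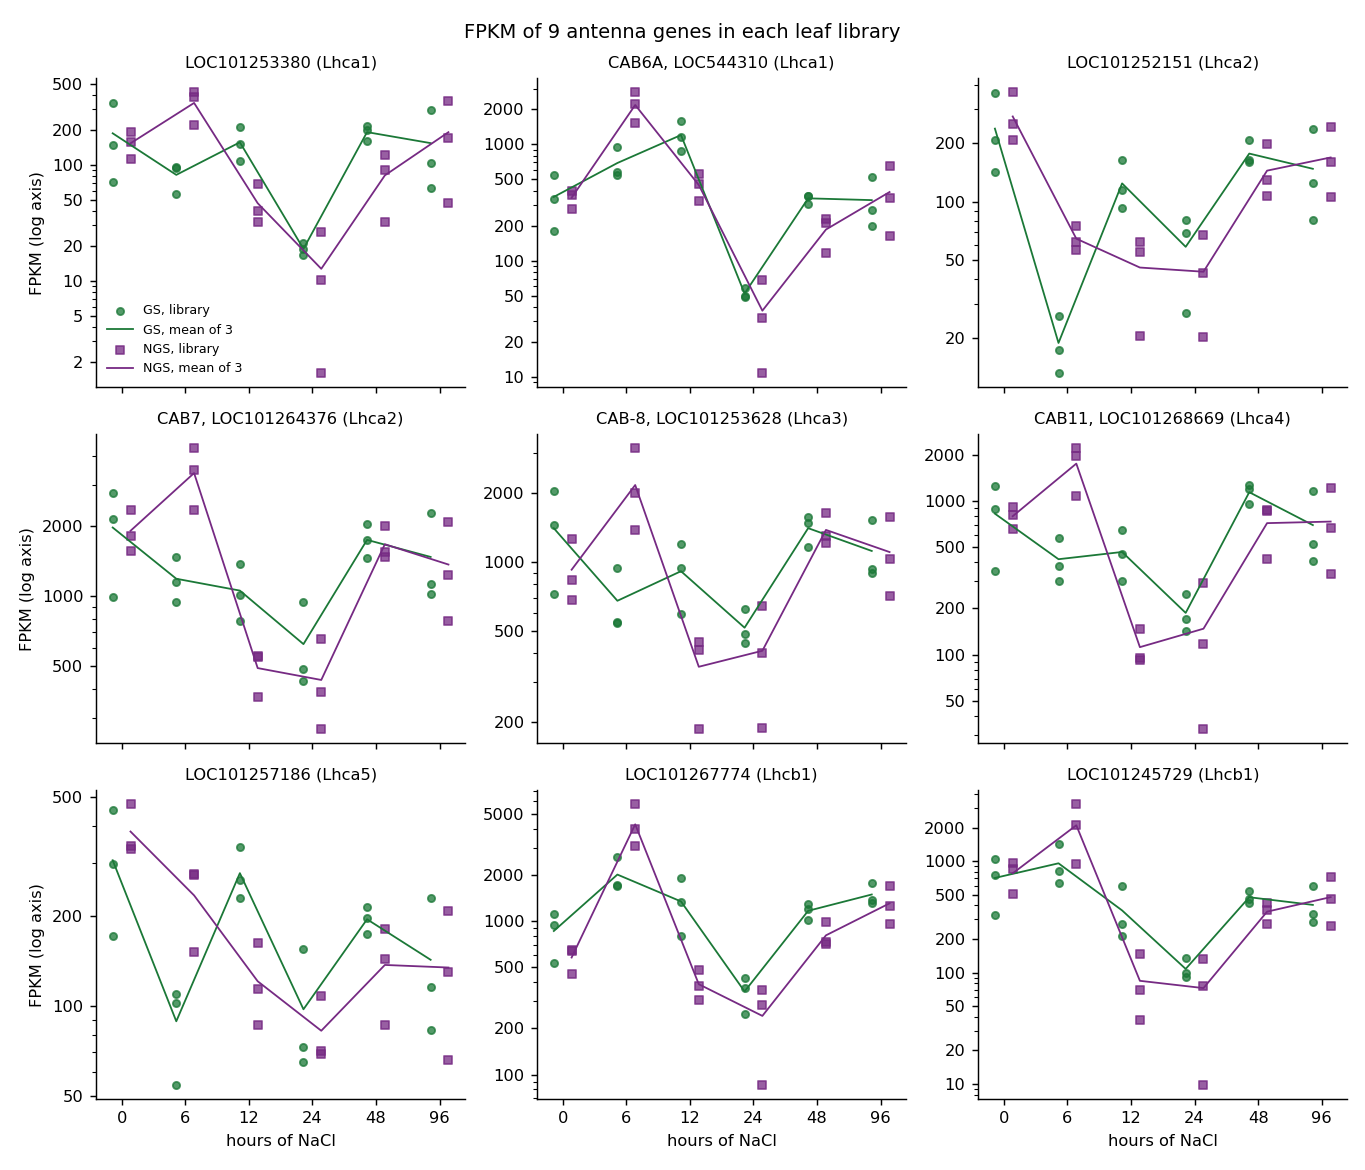
FPKM of each of the 9 genes (log axis) in the 36 libraries by hours of NaCl, with GS libraries as green circles on the left and NGS libraries as purple squares on the right of each time point and lines through the means of 3. All 9 genes had a lower mean at 24 h than at 0 h in both types of seedling, and at 6 h every gene had a lower mean in GSs than in NGSs.

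Relative to 0 h, the genes differed in direction before all were lower at 24 h. At 6 h in GSs, 2 of the 9 were higher and 2 lower by a log2 change of at least 1 (all genes tested: 11.7% higher and 13.7% lower), with a median of -0.85 and a range of -3.54 to 1.26. In NGSs at 6 h, 6 were higher and 1 lower (all genes: 10.8% higher and 16.1% lower), with a median of 1.13. At 12 h in GSs, 1 gene was higher and 0 lower by that size (all genes: 8.77% higher and 10.2% lower), against 0 higher and 7 lower in NGSs (all genes: 11.2% higher and 17.6% lower). At 24 h, 9 of 9 were lower by at least 1 in GSs (all genes: 6.59%) and 9 of 9 in NGSs (all genes: 17.1%), with no overlap with the 0 h libraries for any of the 9 in either type (16.1% of all genes in GSs and 28.2% in NGSs). At 48 h, 0 of 9 in GSs and 3 of 9 in NGSs were still lower by that size (all genes: 5.62% in GSs and 14.3% in NGSs). At 96 h, 1 of 9 was lower in GSs (all genes: 5.50%), and 1 was lower and 1 higher in NGSs (all genes: 10.4% lower and 10.8% higher). With FPKM scaled to equal sums in each library, the counts at 12 h in NGSs were 1 higher and 6 lower, those at 24 h 7 lower in GSs and 8 lower in NGSs, those in NGSs 7 higher at 6 h and 1 lower at 48 h, and the other counts were the same. Since the choice of the genes used the early changes, nothing is read from the counts at 6, 12 and 24 h, and the 48 and 96 h counts share the 0 h libraries with them.

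The Lhca1 genes differed from each other at 6 and 12 h. At 0 h, LOC101253380 had 342, 71.3 and 147 FPKM in the GSs, against 191, 113 and 156 FPKM in the NGSs. At 6 h, LOC101253380 had 56.2, 95.9 and 93.6 FPKM in the GSs, against 386, 219 and 421 FPKM in the NGSs. At 12 h, LOC101253380 had 152, 107 and 209.8 FPKM in the GSs, against 32.2, 68.0 and 39.8 FPKM in the NGSs. The GSs and NGSs overlapped at 0 h, the GSs were the lower at 6 h with no overlap, and the GSs were the higher at 12 h with no overlap. The log2 change from 0 h was -0.94 in GSs and 1.13 in NGSs at 6 h, and -0.03 in GSs and -1.73 in NGSs at 12 h, with an SE of 0.70. At 24 h, LOC101253380 had 21.2, 18.8 and 16.6 FPKM in the GSs, against 26.2, 1.61 and 10.2 FPKM in the NGSs. The lowest of these, NGS replicate 8, was the lowest value of any of the 9 genes in any library. At 48 h, LOC101253380 had 214, 161 and 199 FPKM in the GSs, against 121, 31.9 and 90.0 FPKM in the NGSs. At 96 h, LOC101253380 had 62.7, 104 and 294 FPKM in the GSs, against 47.0, 356 and 171 FPKM in the NGSs. At 96 h the libraries of each type spread so widely that the ranges of the types overlapped in full. Ordered from the lowest mean, the times were 24, 6, 96, 12, 0 and 48 h in GSs and 24, 12, 48, 0, 96 and 6 h in NGSs, and only the lowest time was apart from its neighbour without overlap.

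CAB6A, the other Lhca1 gene, was 1 of the 2 genes that were higher at 6 h by a log2 change of at least 1 in both types of seedling. At 0 h, CAB6A had 540.4, 178 and 341 FPKM in the GSs, against 397, 278 and 367 FPKM in the NGSs. At 6 h, CAB6A had 540.0, 579.8 and 955 FPKM in the GSs, against 2210.3, 1543 and 2802 FPKM in the NGSs. At 12 h, CAB6A had 1157, 877 and 1578 FPKM in the GSs, against 328, 558 and 456 FPKM in the NGSs. In GSs the mean at 12 h was the highest of the 6 times, and the lowest library then was above all 3 at 0 h. In NGSs the highest mean came at 6 h, and the libraries of 12 h overlapped those of 0 h. The log2 change was 1.06 in GSs and 2.62 in NGSs at 6 h, and 1.87 in GSs and 0.35 in NGSs at 12 h (SE 0.50), the value of NGSs at 12 h being 1.01 with FPKM scaled to equal sums. At 24 h, CAB6A had 58.4, 48.3 and 49.3 FPKM in the GSs, against 67.9, 10.8 and 32.2 FPKM in the NGSs. At 48 h, CAB6A had 362, 309 and 359 FPKM in the GSs, against 229, 116 and 209 FPKM in the NGSs. At 96 h, CAB6A had 196, 271 and 526 FPKM in the GSs, against 163, 655 and 349 FPKM in the NGSs. At 48 h the 3 GS libraries lay above the 3 NGS libraries, and at 96 h the types overlapped. In the annotation of another assembly (SLM_r2.1), CAB6A and LOC101253380 are neighbours with 1 gene between them.

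Of the Lhca2 genes, LOC101252151 was the only 1 of the 9 that was lower by a log2 change of at least 2 at 6 h. At 0 h, LOC101252151 had 365, 142 and 208 FPKM in the GSs, against 365, 209 and 251 FPKM in the NGSs. At 6 h, LOC101252151 had 13.2, 17.3 and 25.9 FPKM in the GSs, against 62.4, 56.6 and 74.9 FPKM in the NGSs. At 12 h, LOC101252151 had 115, 93.0 and 165 FPKM in the GSs, against 20.4, 62.4 and 55.0 FPKM in the NGSs. In both types all libraries of 6 h were below those of 0 h, and the GSs lay below the NGSs at 6 h and above them at 12 h, each with no overlap. The log2 change at 6 h was -3.54 in GSs and -2.04 in NGSs, and at 12 h it was -0.86 in GSs and -2.66 in NGSs (SE 0.47). At 24 h, LOC101252151 had 80.7, 68.8 and 26.8 FPKM in the GSs, against 67.9, 20.1 and 43.2 FPKM in the NGSs. At 48 h, LOC101252151 had 207, 160.3 and 164 FPKM in the GSs, against 198, 107 and 129 FPKM in the NGSs. At 96 h, LOC101252151 had 80.9, 125 and 238 FPKM in the GSs, against 106, 242 and 160.4 FPKM in the NGSs. The lowest mean of the GSs was that of 6 h, apart from 24 h without overlap, whereas in NGSs the libraries of 24, 12 and 6 h overlapped their neighbours in this order.

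CAB7, the more abundant Lhca2 gene, had no fall of that size in value at 6 h. At 0 h, CAB7 had 2778, 989 and 2145 FPKM in the GSs, against 2350.1, 1557 and 1815 FPKM in the NGSs. At 6 h, CAB7 had 943, 1145 and 1474 FPKM in the GSs, against 3491, 2333 and 4308 FPKM in the NGSs. At 12 h, CAB7 had 1009.6, 779 and 1379.6 FPKM in the GSs, against 369, 547 and 555 FPKM in the NGSs. The GSs lay below the NGSs at 6 h and above them at 12 h, with no overlap at either time. The log2 change from 0 h was -0.63 in GSs and 0.80 in NGSs at 6 h, -0.81 in GSs and -1.96 in NGSs at 12 h, and -1.63 in GSs and -2.20 in NGSs at 24 h (SE 0.40). At 24 h, CAB7 had 948, 486 and 432 FPKM in the GSs, against 651, 269 and 388 FPKM in the NGSs. At 48 h, CAB7 had 2038, 1456 and 1739 FPKM in the GSs, against 1992, 1467 and 1553 FPKM in the NGSs. At 96 h, CAB7 had 1023, 1131 and 2266 FPKM in the GSs, against 779, 2091 and 1229 FPKM in the NGSs. The types overlapped at 24, 48 and 96 h, and in NGSs the libraries of 24 and 12 h overlapped each other and lay below those of 96 h, the next in order.

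CAB-8, which encodes Lhca3, followed a like course at a similar level. At 0 h, CAB-8 had 2041, 728 and 1450.4 FPKM in the GSs, against 1261, 684 and 834 FPKM in the NGSs. At 6 h, CAB-8 had 547, 544 and 941 FPKM in the GSs, against 2001, 1379 and 3140.4 FPKM in the NGSs. At 12 h, CAB-8 had 941, 592 and 1204 FPKM in the GSs, against 187, 446 and 413 FPKM in the NGSs. At 6 h the 3 GS libraries were below the 3 NGS libraries, and at 12 h they were above them. The log2 change from 0 h at 6 h was -0.98 in GSs and 1.20 in NGSs, and at 12 h -0.56 in GSs and -1.46 in NGSs (SE 0.43). At 24 h, CAB-8 had 621, 485 and 443 FPKM in the GSs, against 640.0, 189 and 399.6 FPKM in the NGSs. At 48 h, CAB-8 had 1579, 1161 and 1482 FPKM in the GSs, against 1638, 1216 and 1294 FPKM in the NGSs. At 96 h, CAB-8 had 898, 932 and 1526 FPKM in the GSs, against 712, 1578 and 1030.4 FPKM in the NGSs. The 24 h change of this gene, -1.34 in GSs and -1.30 in NGSs, was the smallest of the 9 in NGSs, and CAB-8 and CAB11 were the genes whose mean FPKM in NGSs was lower at 12 h than at 24 h, with overlapping libraries.

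CAB11 encodes Lhca4, the partner of Lhca1. At 0 h, CAB11 had 1241, 352 and 885 FPKM in the GSs, against 914, 662 and 810.0 FPKM in the NGSs. At 6 h, CAB11 had 301, 380.1 and 573 FPKM in the GSs, against 1972, 1079 and 2193 FPKM in the NGSs. At 12 h, CAB11 had 452, 302 and 643 FPKM in the GSs, against 93.1, 148 and 95.3 FPKM in the NGSs. The GSs were the lower at 6 h and the higher at 12 h, both without overlap, and the difference at 12 h, a log2 value of 2.01, was the second largest of the 9. The log2 change from 0 h was -0.71 in GSs and -2.84 in NGSs at 12 h (SE 0.57). At 24 h, CAB11 had 248, 170.5 and 143 FPKM in the GSs, against 292, 33.0 and 118 FPKM in the NGSs. At 48 h, CAB11 had 1270.3, 950.1 and 1198 FPKM in the GSs, against 874, 421 and 857 FPKM in the NGSs. At 96 h, CAB11 had 404, 524 and 1162 FPKM in the GSs, against 335, 1204 and 663 FPKM in the NGSs. All 3 GS libraries were above the NGS libraries at 48 h, and 48 h had the highest mean of the GSs, although its libraries overlapped those of 0 h.

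LOC101257186, annotated as Lhca5, was among the less abundant of the genes. At 0 h, LOC101257186 had 452, 171 and 299 FPKM in the GSs, against 472, 334 and 344 FPKM in the NGSs. At 6 h, LOC101257186 had 54.4, 102 and 109.6 FPKM in the GSs, against 277, 152 and 275 FPKM in the NGSs. At 12 h, LOC101257186 had 265, 229.8 and 340.0 FPKM in the GSs, against 86.3, 162 and 114 FPKM in the NGSs. It was below its 0 h level at 6 h in both types, by a log2 change of -1.73 in GSs and -0.74 in NGSs, and at 12 h the change was -0.05 in GSs and -1.69 in NGSs (SE 0.42). At 24 h, LOC101257186 had 155, 64.7 and 72.5 FPKM in the GSs, against 108, 69.2 and 70.8 FPKM in the NGSs. At 48 h, LOC101257186 had 214, 174 and 197 FPKM in the GSs, against 181, 86.4 and 144 FPKM in the NGSs. At 96 h, LOC101257186 had 83.1, 115 and 229 FPKM in the GSs, against 65.8, 208 and 129.5 FPKM in the NGSs. In NGSs all libraries after 0 h were below those of 0 h, and at 96 h the change from 0 h was still -1.64, against -1.12 in GSs, where the libraries of 96 h overlapped those of 0 h.

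LOC101267774 (Lhcb1) was the most abundant of the 9 at 6 h. At 0 h, LOC101267774 had 1103, 532 and 946 FPKM in the GSs, against 642, 449 and 643 FPKM in the NGSs. At 6 h, LOC101267774 had 1716, 1692 and 2608 FPKM in the GSs, against 3982, 3060.4 and 5736 FPKM in the NGSs. At 12 h, LOC101267774 had 1334, 796 and 1891 FPKM in the GSs, against 307, 477 and 378 FPKM in the NGSs. In NGSs the 6 h libraries were all above those of 0 h, and the log2 change, 2.85, was the largest positive value among the 9 genes at any time, against 1.26 in GSs (SE 0.39). At 12 h the change was 0.62 in GSs and -0.58 in NGSs, and that of the NGSs turned to 0.09 when FPKM were scaled to equal sums in each library, a scale that moved the median of all genes by 0.51 in this contrast. At 24 h, LOC101267774 had 249, 425 and 368 FPKM in the GSs, against 354, 85.7 and 282 FPKM in the NGSs. At 48 h, LOC101267774 had 1197, 1016 and 1281 FPKM in the GSs, against 733, 707 and 978 FPKM in the NGSs. At 96 h, LOC101267774 had 1371, 1315 and 1777 FPKM in the GSs, against 954, 1695 and 1259.7 FPKM in the NGSs. Its change from 0 h to 96 h, 0.84 in GSs and 1.15 in NGSs, was the highest value of the 9 in both types, and it was the only gene of the 9 whose libraries of 96 h lay above all of 0 h (all genes: 20.4% in GSs and 24.2% in NGSs).

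LOC101245729, the other Lhcb1 gene, lies next to LOC101267774 in the assembly SLM_r2.1, with a further antenna gene, Cab-3C, beside the pair. At 0 h, LOC101245729 had 1038, 329 and 753 FPKM in the GSs, against 970.4, 507 and 855 FPKM in the NGSs. At 6 h, LOC101245729 had 823, 631 and 1416 FPKM in the GSs, against 2133, 938 and 3228 FPKM in the NGSs. At 12 h, LOC101245729 had 211, 274 and 598 FPKM in the GSs, against 70.1, 145 and 37.4 FPKM in the NGSs. The types overlapped at 6 h, the only such case among the 9, and the GSs were the higher at 12 h without overlap, by 2.15 on the log2 scale (SE 0.65), the largest difference of the 9 at that time. At 24 h, LOC101245729 had 134, 98.9 and 90.2 FPKM in the GSs, against 131, 9.81 and 76.3 FPKM in the NGSs. At 48 h, LOC101245729 had 543, 458 and 422 FPKM in the GSs, against 365, 270.1 and 421 FPKM in the NGSs. At 96 h, LOC101245729 had 333, 286 and 596 FPKM in the GSs, against 259, 714 and 453 FPKM in the NGSs. The log2 change from 0 h to 24 h was -2.57 in GSs and -3.97 in NGSs, and that of the NGSs was -2.89 without replicate 8. How reads shared by close copies were treated is not stated in the sources used here, so the levels of neighbouring copies of 1 class are uncertain to that extent.

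Between the types of seedling, the sign of the difference changed with time. Before salt (0 h), the log2 difference of the GSs from the NGSs ranged over -0.41 to 0.53 (median -0.10), 0 of the 9 reached a size of 1 in either direction (all genes: 2.95% higher and 5.58% lower), and all 9 overlapped. At 6 h, 9 of 9 were lower in GSs by at least 1 (all genes: 4.34%), with a median of -1.65, and 8 of 9 did not overlap (15.7% of all genes lay lower without overlap). At 12 h, 9 of 9 were higher in GSs by at least 1 (all genes: 3.95%), with a median of 1.53 and no overlap for any of the 9 (11.5% of all genes). At 24 h all 9 had a higher mean in GSs (51.1% of all genes had one), 2 of them by at least 1 (all genes: 1.93%), with a median of 0.72, and all 9 overlapped. That median was 0.084 without NGS replicate 8, and CAB11 and LOC101252151 then had a lower mean in GSs, as LOC101257186 had without GS replicate 7. All of these libraries belong to the times by which the genes were chosen, so these values are a description.

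At 48 h, the first time outside the choice, 0 of 9 genes were called between the GSs and NGSs by limma at a log2 size of at least 1 and an FDR under 0.05 (0.0498% of all genes tested were). All 9 had a higher mean in GSs, 8 of 9 with FPKM scaled to equal sums (48.3% of all genes had a difference above 0), by a median of 0.54 and a range of 0.03 to 1.42, with the lowest adjusted p at 0.442, and 0 of 9 had an unadjusted p under 0.05 (11.4% of all genes did). NGS replicate 11 was the lowest of its group for all 9 genes, so the 9 signs are not independent of each other. The count above 0 was 7 of 9 without NGS replicate 11 or without GS replicate 10. The difference was 1.42 for LOC101253380 (95% interval -0.01 to 2.85) and 0.94 for CAB6A (-0.08 to 1.97), both of Lhca1. It was 0.06 for CAB7 (-0.76 to 0.88) and 0.03 for CAB-8 (-0.85 to 0.90), and both values changed sign when NGS replicate 11 or GS replicate 10 was left out. The libraries of LOC101253380, CAB6A, CAB11, LOC101267774 and LOC101245729 did not overlap, 5 of 9 genes (11.1% of all genes lay higher without overlap). At 96 h, 0 of 9 were called (0.00996% of all genes) and 0 of 9 had an unadjusted p under 0.05 (4.51% of all genes), the differences ranged over -0.25 to 0.22 with a median of -0.04, and all 9 overlapped. A test with voom weights on the recovered reads also called 0 of 9 at both times. These p-values and intervals rest on a spread per gene that is shared over all 12 groups, not on that of the groups compared. For LOC101253380 the SE was 0.70 at both 48 and 96 h. The SD of its FPKM in GSs was 14.2% of the mean at 48 h and 80.3% at 96 h. The labels do not say that each library came from separate plants. The intervals at 96 h, such as -0.69 to 0.95 for CAB7 and -1.62 to 1.24 for LOC101253380, leave room for differences in either direction.

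**Figure D2:**
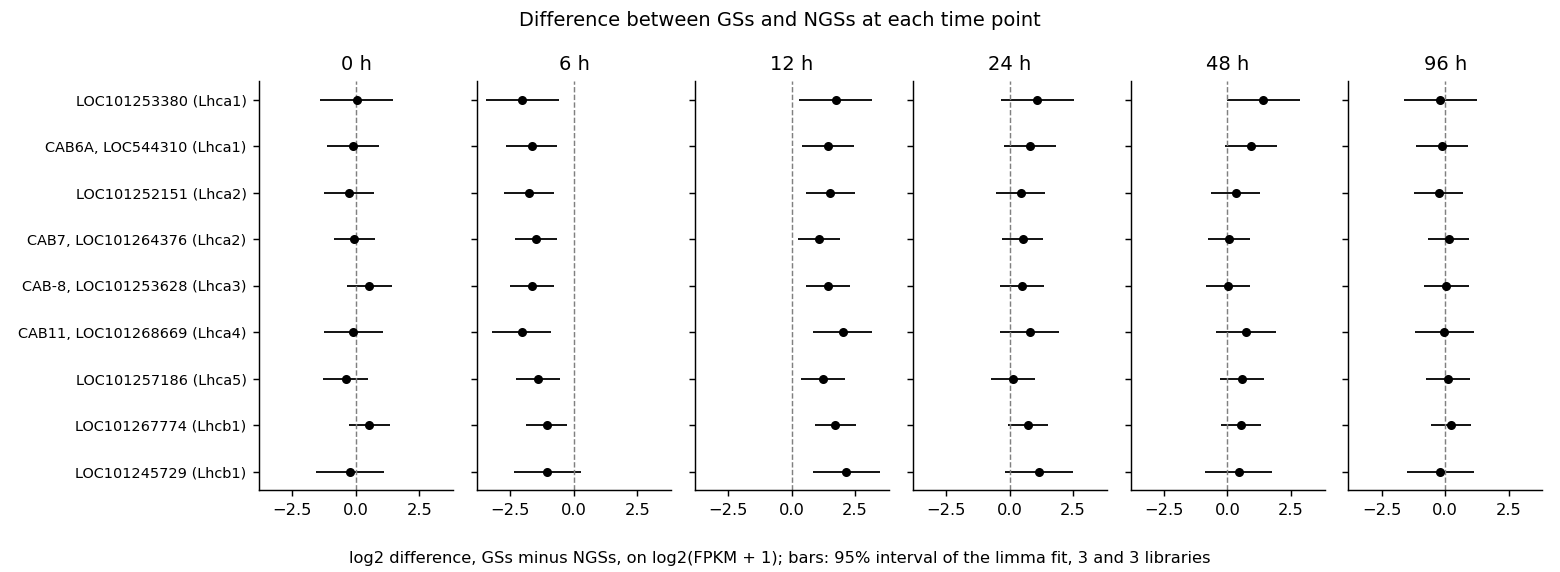
Log2 difference of the GSs from the NGSs (GSs minus NGSs, on log2(FPKM + 1)) of each of the 9 genes at the 6 times, with points for the estimate and bars for its 95% interval in the limma fit of all 36 libraries, with 3 in each group. All 9 points lie below 0 at 6 h and above 0 at 12, 24 and 48 h (CAB-8 at 48 h drops below it with FPKM scaled to equal sums), and on both sides of 0 at 0 and 96 h. The libraries of 0, 6, 12 and 24 h took part in the choice of the genes. Bars at these times are a description, and whether they cross 0 is no test.

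From 48 to 96 h, no gene of the 9 was called in either type. In GSs the log2 change (96 h minus 48 h) ranged over -0.85 to 0.35 with a median of -0.36, 8 of 9 were below 0 (48.5% of all genes were above it), and the lowest adjusted p was 0.306 (limma, 7.24% of all genes called). In NGSs it ranged over -0.39 to 1.00 with a median of 0.19, and the lowest adjusted p, 0.178, was that of CAB6A (9.29% of all genes called), whose change was 0.91 (95% interval -0.11 to 1.93). Without NGS replicate 13 of 96 h, the lowest of its group for all 9 genes, CAB6A was called with a log2 change of 1.42 and an adjusted p of 0.0477, and over all alternatives its adjusted p was 0.0477 to 0.610. Of the 9 genes, 0 had an unadjusted p under 0.05 in GSs and 0 in NGSs (33.3% of all genes in GSs and 39.1% in NGSs), and voom called 0 in both. LOC101267774 was the only gene whose 96 h libraries lay above those of 48 h in GSs without overlap (20.6% of all genes), at a change of 0.35. The change in GSs minus that in NGSs had a median of -0.58 and ranged from -1.61 for LOC101253380 (95% interval -3.63 to 0.42) to 0.07 for CAB7 (-1.10 to 1.23), with 0 of 9 called by limma (0.00498% of all genes), 0 by voom and 0 at an unadjusted p under 0.05 (6.54% of all genes).

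The 9 genes were set beside 11 other antenna genes, found by their symbols in the reference. Of the 16 such symbols among the genes measured, 5 belong to the 9 and were left out. The choice of the 9 by their early changes thus also shaped the 11, which are no neutral reference. At 6 h, the median log2 change from 0 h was -0.85 for the 9 and -1.83 for the 11 in GSs, and 1.13 for the 9 and 0.75 for the 11 in NGSs. At 12 h in GSs, the median was -0.56 for the 9 and -1.81 for the 11, and in NGSs it was -1.73 for the 9 and -3.64 for the 11. At 24 h, it was -2.00 for the 9 and -2.13 for the 11 in GSs, and -2.75 for the 9 and -3.27 for the 11 in NGSs. At 24 h in GSs, the 9 ranged over -2.97 to -1.27 and the 11 over -5.81 to -0.61, and in NGSs the 9 ranged over -4.02 to -1.30 and the 11 over -8.03 to -0.83. The range of the 11 thus took in that of the 9 and reached further on both sides. Since the 9 were chosen for smaller or mixed early changes, these medians are no test. The opposite signs of the difference between GSs and NGSs at 6 and 12 h were not particular to the 9: at 6 h, 11 of 11 other antenna genes and 8 of 9 other nuclear photosynthesis genes were lower in GSs by at least 1, and at 12 h 10 of 11 and 9 of 9 were higher by at least 1. At 48 h, the 9 genes described all had a higher mean in GSs with a median of 0.54 and 0 called, and 11 of 11 others had one with a median of 0.68 and 0 called. At 96 h the medians were -0.04 for the 9 and -0.11 for the 11, with 0 called in either.

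**Figure D3:**
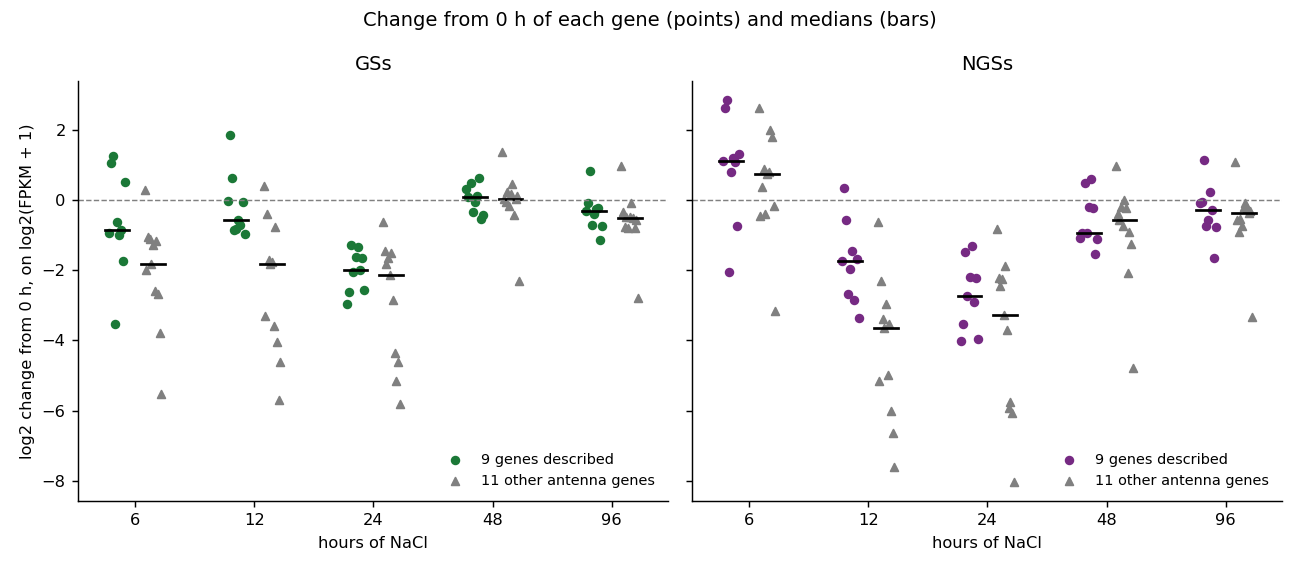
Log2 change from 0 h, on log2(FPKM + 1), in GSs (left panel) and NGSs (right panel) at 6 to 96 h, with a coloured circle for each of the 9 genes, a grey triangle for each of 11 other antenna genes and a black bar for each median. The lowest value at each time in each panel is that of an other antenna gene, and the 4 medians at 96 h lie between -0.50 and -0.29.

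Other genes of photosynthesis were taken by symbol as well. Among 9 nuclear genes, which encode the small subunit of Rubisco and subunits of PSI and PSII, 0 were called between the GSs and NGSs at 48 h (median log2 difference 0.07, 7 higher and 2 lower in value) or at 96 h (median 0.02). Among 20 plastid genes of PSI and PSII, the GSs at 48 h had a median difference of 1.07 from the NGSs with 0 called. By limma, 9 of the 20 had an unadjusted p under 0.05 there (all genes: 11.4%). Before salt (0 h) the median difference was -1.32, with 12 of the 20 lower in GSs by at least 1 (all genes: 5.58%). From 48 to 96 h in GSs, 0 were called higher and 2 lower (all genes: 7.24% called in either direction), with a median of -1.06. In NGSs from 48 to 96 h, 0 of the 20 plastid genes were called, and the median was -0.03.

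Ratios of 2 genes of the same class within a library do not depend on the scale between libraries. The ratio of CAB6A to LOC101253380 was 1.58 to 2.50 in GSs and 2.08 to 2.47 in NGSs at 0 h, 6.05 to 10.2 in GSs and 5.73 to 7.06 in NGSs at 6 h, and 7.52 to 8.19 in GSs and 8.21 to 11.4 in NGSs at 12 h. All 12 libraries of 6 and 12 h had a higher ratio than any of the 6 libraries of 0 h, in which it did not exceed 2.50. At 24 h it was 2.57 to 2.97 in GSs and 2.59 to 6.71 in NGSs, and at 48 h 1.69 to 1.92 in GSs and 1.89 to 3.65 in NGSs. The Lhca2 genes diverged most at 6 h. CAB7 had 6.97 to 10.3 times the FPKM of LOC101252151 in GSs at 0 h and 6.43 to 7.47 times in NGSs, but 56.9 to 71.4 times in GSs and 41.2 to 57.5 times in NGSs at 6 h. By 12 h the ratio was 8.35 to 8.76 in GSs and 8.77 to 18.1 in NGSs, and over the 30 libraries of the other times it stayed at or under 18.1. For the Lhcb1 genes, LOC101267774 over LOC101245729, the ratio was 1.06 to 1.61 in GSs and 0.661 to 0.885 in NGSs at 0 h and 2.98 to 4.60 in GSs and 2.37 to 3.68 in NGSs at 96 h, and each of the 30 libraries after 0 h was above all 6 of 0 h. In NGSs, LOC101245729 had the more FPKM of the pair in 3 of 3 libraries at 0 h, and LOC101267774 in 3 of 3 at each later time. The ratios include the libraries by which the genes were chosen and were not tested.

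**Figure D4:**
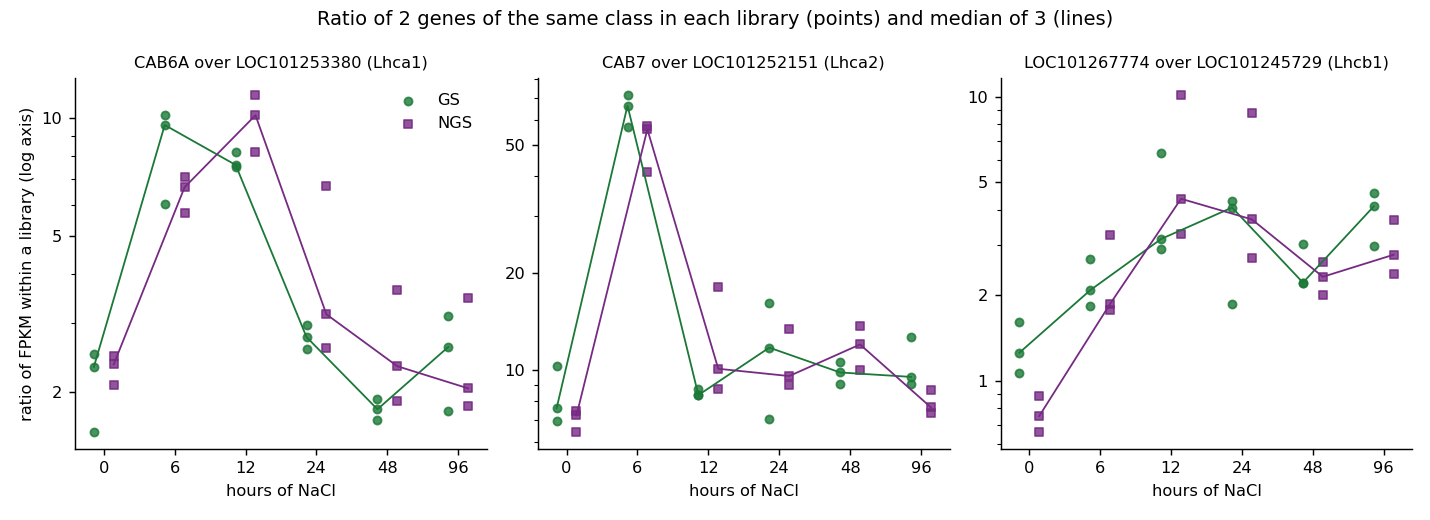
Ratio of the FPKM of 2 genes of the same class in each library (log axis) by hours of NaCl, with GS libraries as green circles on the left, NGS libraries as purple squares on the right and lines through the medians of 3. The Lhca2 ratio stands at 41.2 to 71.4 in the 6 libraries of 6 h and at or under 18.1 in all others.

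In many libraries, though not in all, the 9 genes deviated together from the mean of their group. In GS replicate 4 and NGS replicate 6 of 12 h, 4 of the 9 lay above that mean, with deviations of -0.94 to 0.40 in the latter. The SD between replicates on log2(FPKM + 1), pooled over the 12 groups, was 0.49 for LOC101267774, the lowest of the 9, and 0.90 for LOC101253380, the highest, and 82.1 to 97.0% of all genes tested had a smaller SD than the gene concerned. In GSs at 0 h, replicate 1 was the highest of the 3 and replicate 2 the lowest for 9 of 9 genes, with median deviations from the group mean of 0.70 in replicate 1 and -0.84 in replicate 2. In GSs at 96 h, replicate 15 was the highest for 9 of 9 (median deviation 0.79). In NGSs, replicate 8 was the lowest for 9 of 9 at 24 h (median -1.25, lowest -2.15) and replicate 7 the highest for 9 of 9 (median 0.81). At 96 h, NGS replicate 14 was the highest and replicate 13 the lowest for 9 of 9 (medians 0.73 and -0.75). The median of the 9 other nuclear photosynthesis genes deviated in the same direction in these libraries (0.66 and -0.58 in GSs at 0 h, 0.59 in GS replicate 15, -0.51 and 0.37 in NGS replicates 8 and 7, and 0.54 and -0.62 in NGS replicates 14 and 13), while the median of all genes tested deviated by at most 0.02. The GSs at 48 h were the tightest group, with median deviations of 0.17, -0.19 and 0.07. The part of this shared spread in the comparisons was not tested beyond leaving out each library in turn.

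**Figure D5:**
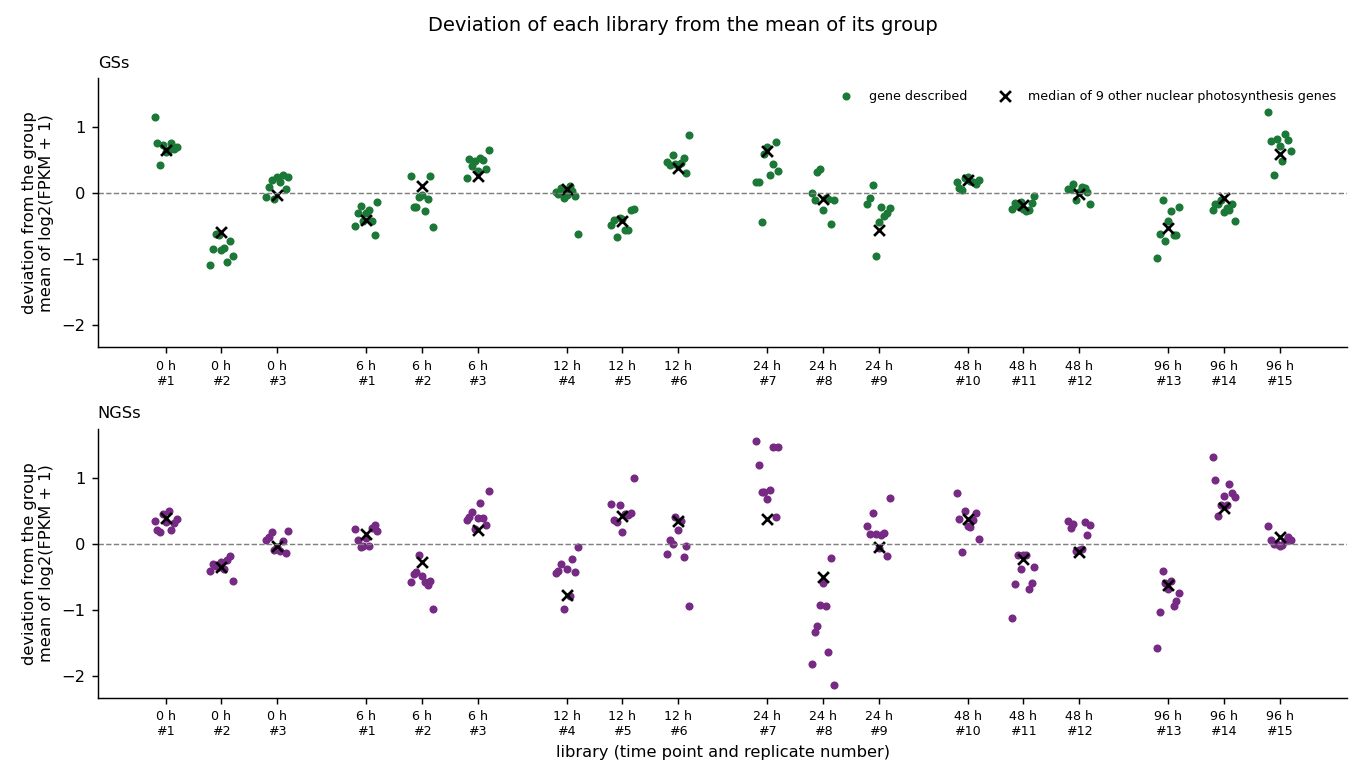
Deviation of each library from the mean of its group on log2(FPKM + 1), GSs above and NGSs below, with a dot for each of the 9 genes and a cross for the median of 9 other nuclear photosynthesis genes. In NGS replicate 8 of 24 h all 9 dots lie below 0, down to -2.15, and in the libraries of the GSs at 48 h all lie within 0.27 of 0.

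Across the 12 group means, the 9 genes were alike to very different degrees. Pearson's r, given as a description over 12 points that share their libraries, was highest for CAB7 with CAB11 (0.980) and CAB-8 with CAB11 (0.969), and lowest for LOC101267774 with LOC101252151 (0.09) and CAB6A with LOC101252151 (0.11). Among all genes tested, the one most like LOC101253380 was the antenna gene Cab-3C (0.975), then LOC101265555 and LOC101245121. LOC101266305 (0.972), POR2 (0.963) and LOC101260476 were most like CAB6A, and LOC101266040 (0.930), LOC101265841 and the antenna gene CAB1B (0.903) most like LOC101267774. The nearest to LOC101252151 were LOC101248456, LOC101250846 and LOC101267465 (0.976 to 0.979), and to LOC101257186 LOC101258049, LOC101252927 and LOC101264675 (0.965 to 0.977). CAB7 had LOC101254806 (0.981), CAB11 and LOC543978 nearest to it, CAB-8 had CAB11, LOC543978 and CAB7, and CAB11 had CAB7, CAB-8 and the antenna gene CAB9 (0.962). LOC101243689 (0.940), CAB7 and LOC101254806 were nearest to LOC101245729.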

How the data were processed

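Leaf RNA of 36 libraries was sequenced, and the deposited table gives FPKM of 32246 genes, as made by the authors, who mapped reads with HISAT. The submitters' notes list HISAT2 2.0.5, featureCounts 1.5.0-p3, DESeq2 1.16.1 and STAR-Fusion 1.2.0, without roles. The unit was inferred from the values, which in each library were whole reads times a constant per gene over a denominator. This held for 32246 of 32246 genes, of which 27368 had reads (each value within 0.01 of a whole read, the farthest at 0.00021). The constant was not compared with gene length, so the scaling to length is assumed. The denominators differed from median-of-ratios size factors by at most 2.7e-10%. Total reads on genes, 15229640 to 26661418 per library, thus set the counting error, which is small beside the spread between replicates for genes of 40 to 135338 reads.

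Of all genes, 20090 reached an FPKM of 1 in 3 or more libraries. Their values were modelled with limma 3.58.1 in R 4.3.3 on log2(FPKM + 1) with 12 group means (eBayes with a trend, 24 residual degrees of freedom). Fold changes on this scale understate those of low values. P was adjusted by Benjamini and Hochberg over all genes within each of 5 tested comparisons, and genes were called at |log2 fold change| of at least 1 and FDR under 0.05. A further 14 comparisons are described only. The fit was tested on simulated data.

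The 9 genes and the lists were chosen with earlier results of these data known. Named genes are the 9 and, for each, the 3 genes with the highest Pearson's r of group means; other antenna, photosynthesis and marker genes were taken by symbol or synonym in a reference of assembly SLM_r2.1, which holds 28942 of the identifiers. Its order of genes was used only to say which genes are neighbours, and none of its coordinates are given, since the build of the authors differs. Clock genes gave 0 symbols and were not analysed. Of 17 antenna symbols, 16 were in the table, 5 of them members.

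Libraries of GSs and NGSs share replicate numbers at each time, and 6 h shares them with 0 h. The residuals of same-numbered libraries correlated above 0.1 in every pair only between GSs and NGSs at 6 h (mean 0.321, lowest 0.124). Libraries with different numbers were not compared in this way, so the check cannot say whether the numbers pair libraries at any time. The labels do not say it either. Alternatives were another pseudocount, filters, scales, the libraries compared alone, voom weights, eBayes without a trend, the replicate block and leaving out each library. Other steps ran in Python 3.11.15 (pandas 2.3.3, NumPy 2.4.6), and plots were drawn with matplotlib 3.10.9.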

Additional observations from a re-analysis of the deposited data

Results flagged for a closer look

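In 5 cases, all 3 libraries of a gene lay on one side of its 0 h mean (of log2 values) in GSs and on the other side in NGSs. At 6 h, this held for 4 of the 9, with GSs below and NGSs above (3.17% of all genes tested): LOC101253380 (GSs minus NGSs in the log2 change from 0 h, -2.07, from -0.94 in GSs and 1.13 in NGSs), CAB7 (-1.43, from -0.63 in GSs and 0.80 in NGSs), CAB-8 (-2.18, from -0.98 in GSs and 1.20 in NGSs) and CAB11 (-1.94, from -0.85 in GSs and 1.08 in NGSs). At 48 h it held for 1 of the 9, with GSs above and NGSs below (4.22% of all genes), LOC101253380 (1.38, from 0.31 in GSs and -1.08 in NGSs), where the change of the GSs turned to -0.24 without GS replicate 2 of 0 h. The rule compares libraries with the mean of 0 h and not with the spread of its libraries. At 6 h, the GS libraries of all 4 genes overlapped those of 0 h, as did the NGS libraries of CAB7. At 48 h, the libraries of LOC101253380 overlapped those of 0 h in both types. The differences between GSs and NGSs were not tested, since the 0 h and 6 h libraries took part in the choice of the genes.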

How the results depend on the processing

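Of 2240 values under the alternatives, 2217 kept their call (tested comparisons) or moved by less than the spread between replicates (described comparisons). Direction was not part of this count, and values counted as kept could change sign. The difference of the GSs from the NGSs at 96 h for LOC101253380, for example, went from -0.19 to 0.47 without NGS replicate 14. With FPKM scaled to equal sums, the median of the 9 genes at 12 h against 0 h in NGSs was -1.07 (deposited scale, -1.73), since that scale moves the median of all genes by 0.51 there, and 6 of the 9 single values moved with it (CAB-8 to -0.79, CAB7 to -1.29, LOC101257186 to -1.02, LOC101252151 to -2.01, CAB6A to 1.01 and LOC101267774 to 0.085). With the replicate block in limma, 0 of 9 genes were called between GSs and NGSs at 48 h (lowest adjusted p 0.315) and at 96 h (1.00). Each replicate number holds 1 GS and 1 NGS library at a time, so the block can change only the error of their difference. The difference itself, such as the median of -1.65 at 6 h, was fixed in advance. The comparisons of 96 h with 48 h share no replicate numbers and had no such fit. Over all genes, the calls at 48 h numbered 10 in the fit used, 87 with the block and 0 to 118 over the alternatives, those at 96 h 2 and 0 to 28, and those of the difference between the changes 1 and 0 to 9.

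Leaving out single libraries gave 0 of 9 called between GSs and NGSs at 48 and 96 h, from 48 to 96 h in GSs and for the difference, and 0 to 1 from 48 to 96 h in NGSs (CAB6A, without replicate 13). The median of the 9 at 24 h against 0 h in NGSs lay between -3.14 and -2.10 and the difference of the GSs from the NGSs at 24 h between 0.084 and 1.12, both nearest 0 without NGS replicate 8. Of the single-gene values, 10 moved without NGS replicate 8 and 2 without NGS replicate 7 at 24 h. The recovered reads, at least 40 on each gene, limit these values less than the 3 libraries per group do.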
